A study of Mus musculus with 6 samples.

Results

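Cd74, the invariant chain, and 8 other genes of MHC class II presentation were followed in irradiated mouse cortex with and without Lgmn, the gene of asparagine endopeptidase (AEP). The 9 genes were taken by name from the deposited gene tables, which list 51826 genes in all. They are Cd74, the class II chains H2-Aa, H2-Ab1 and H2-Eb1, the peptide editors H2-DMa, H2-DMb1, H2-DMb2 and H2-Oa, and the class II transactivator Ciita. The study compared the cortex of wild-type mice (Lgmn+/+-IR) with that of Lgmn knockout mice (Lgmn-/--IR) by bulk RNA sequencing, with 3 cortex samples per genotype. The sources do not say that each sample came from a separate mouse, so p-values measure only the spread between these samples, which may be technical. The mice of both groups were male BALB/c, aged 6 to 8 weeks, and had received 10 Gy of X-rays to the whole brain, with the cortex taken on day 3. No library from a non-irradiated brain was analysed here, so every difference below is between genotypes after irradiation. The knockout was described as Lgmn flox/flox:Cre+, derived from a targeted embryonic stem cell clone, and which Cre line was used is not given in the sources used here.

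MHC class II molecules are pairs of an alpha and a beta chain that show peptides from endosomes to CD4+ T cells. In the endoplasmic reticulum the invariant chain binds newly made pairs, blocks their groove and directs them to endosomes, where proteases cut it down to a short remnant called CLIP. H2-DM then exchanges CLIP for other peptides, H2-O restrains H2-DM, and CIITA drives the transcription of most of these genes. AEP is one of the endosomal proteases that can cut proteins on this route. In the brain, class II is mostly low and is found chiefly on macrophages of the borders and, after activation, on microglia.

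The 7 class II genes other than Cd74 and Ciita lie together on chromosome 17 of the GRCm38 build, between H2-Oa at chr17:34092340-34095234 and H2-Eb1 at chr17:34305867-34316674. Ciita lies apart at chr16:10480059-10528418, and Cd74 on another chromosome. Promoters of class II genes share an X box and a Y box, the elements through which CIITA acts, and 4 windows are shown to let a reader see how alike or unlike the promoters of these genes are. Each window is 70 bases from the RefSeq promoter table of GRCm38.p6, 5′ to 3′ on the gene's strand, with 60 bases before the Y box core and 4 after it. Capitals mark GATTGG, the Y box core, and, within the same window, AACNGA, an X box core, or TGACG, an X2 core, with both strands searched. The first window is at chr17:34092275-34092344 on the plus strand.
H2-Oa: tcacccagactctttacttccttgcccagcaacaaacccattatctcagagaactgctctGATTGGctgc
The second is at chr17:34145098-34145167 on the plus strand.
H2-DMb2: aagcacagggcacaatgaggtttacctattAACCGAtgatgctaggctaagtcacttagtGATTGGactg
The third is at chr17:34287863-34287932 on the minus strand, where TGACG and its reverse complement overlap.
H2-Aa: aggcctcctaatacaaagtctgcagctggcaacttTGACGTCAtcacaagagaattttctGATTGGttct
The fourth is at chr17:34305747-34305816 on the plus strand.
H2-Eb1: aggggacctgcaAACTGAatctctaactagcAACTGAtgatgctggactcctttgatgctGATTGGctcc
The Y box core began 44 bases before the listed start of H2-Oa, 91 before that of H2-DMb2, 49 before that of H2-Aa and 60 before that of H2-Eb1. Of 32851 listed promoters of the same length of 300 bases, 16.1% held GATTGG, 37.1% AACNGA and 20.8% TGACG, and 8.22% held GATTGG with at least 1 of the others. The corresponding window of H2-DMb1 matched that of H2-DMb2 at 60 of 70 bases. Of the 2 listed starts of H2-DMa, 1 had a Y box core in its promoter and neither had an X box core or X2 core. The promoters of 6 of the 9 genes were listed, and those of Cd74, H2-Ab1 and Ciita were not used here. These matches are of letters only and are not evidence of binding.

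Library totals ranged from 41874462 to 46829441 counts, and values below are counts, or CPM, counts scaled to library size with edgeR's TMM factors (0.9376 to 1.033). At that depth 7 of the 9 genes stayed under 50 counts in every library, so counting error is a large part of their spread. Lgmn itself, the check of the labels, had 5558, 5528 and 5775 counts in the wild type and 3703, 3269 and 4109 in the knockout, a log2 fold change of -0.64 (SE 0.12, edgeR adjusted p = 0.0315). The adjusted p rose to 0.0949 to 0.131 by edgeR without any 1 of the 3 Lgmn+/+-IR libraries or without Lgmn-/--IR replicate 1. The groups did not overlap, but Lgmn reads remained in the knockout cortex, and which exons they came from cannot be read from counts per gene. Summed cortical neuron markers, led by Snap25, were at 5068 to 6010 CPM in the wild type and 5734 to 7052 CPM in the knockout, and none of the 10 passed the test. Over all genes, a differentially expressed gene (DEG) was called at an edgeR quasi-likelihood adjusted p (Benjamini-Hochberg) under 0.05 and an absolute log2 fold change above 1. Of 18345 genes that passed the filter on low counts, 176 were higher and 201 (1.1%) lower in Lgmn-/--IR. The filter kept 7 of the 9 class II genes and left out H2-Oa and Ciita.

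Cd74 was higher in the irradiated cortex without Lgmn, while the class II chains that it accompanies showed no difference that passed the test. At chr18:60803848-60812652, the 3 Lgmn+/+-IR libraries had 58, 45 and 44 Cd74 counts, and the 3 Lgmn-/--IR libraries had 200, 104 and 144. All Lgmn-/--IR libraries lay above all Lgmn+/+-IR libraries, replicate 1 of the knockout being the highest and replicate 2 the lowest of its group. The lowest Lgmn-/--IR library was still 1.65 times the highest Lgmn+/+-IR library in CPM. Mean Cd74 was 1.13 ± 0.206 CPM in the wild type and 3.34 ± 1.13 CPM in the knockout (SD, n = 3 each). This gave a log2 fold change of 1.57 (SE 0.30, 95% interval 0.86 to 2.27), with an adjusted p of 0.0401 by edgeR's quasi-likelihood test. Of all genes tested, 0.959% were called DEGs in this direction, and Cd74 was the 1 gene of the 9 so called. By size of log2 fold change it ranked 223 of the 18345 genes and by p-value 521. The Lgmn-/--IR libraries differed among themselves by more than counting error, with a chi-square per degree of freedom of 17.5 against 1.65 in Lgmn+/+-IR. The call was close to its threshold. It was lost when Lgmn+/+-IR replicate 1 (log2 fold change 1.73, edgeR adjusted p = 0.0748), replicate 2 (1.52, 0.16) or replicate 3 (1.47, 0.145) was left out, and likewise without Lgmn-/--IR replicate 1 (1.29, 0.0913) or replicate 3 (1.58, 0.121). It held without Lgmn-/--IR replicate 2, with a log2 fold change of 1.79 and an edgeR adjusted p of 0.029. The direction was the same in all 18 other settings, with log2 fold changes of 0.84 to 1.79. In bulk tissue, more cells that express Cd74 and more Cd74 RNA per cell cannot be told apart, and the same holds for a lower level of any gene below.

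**Figure D1:**
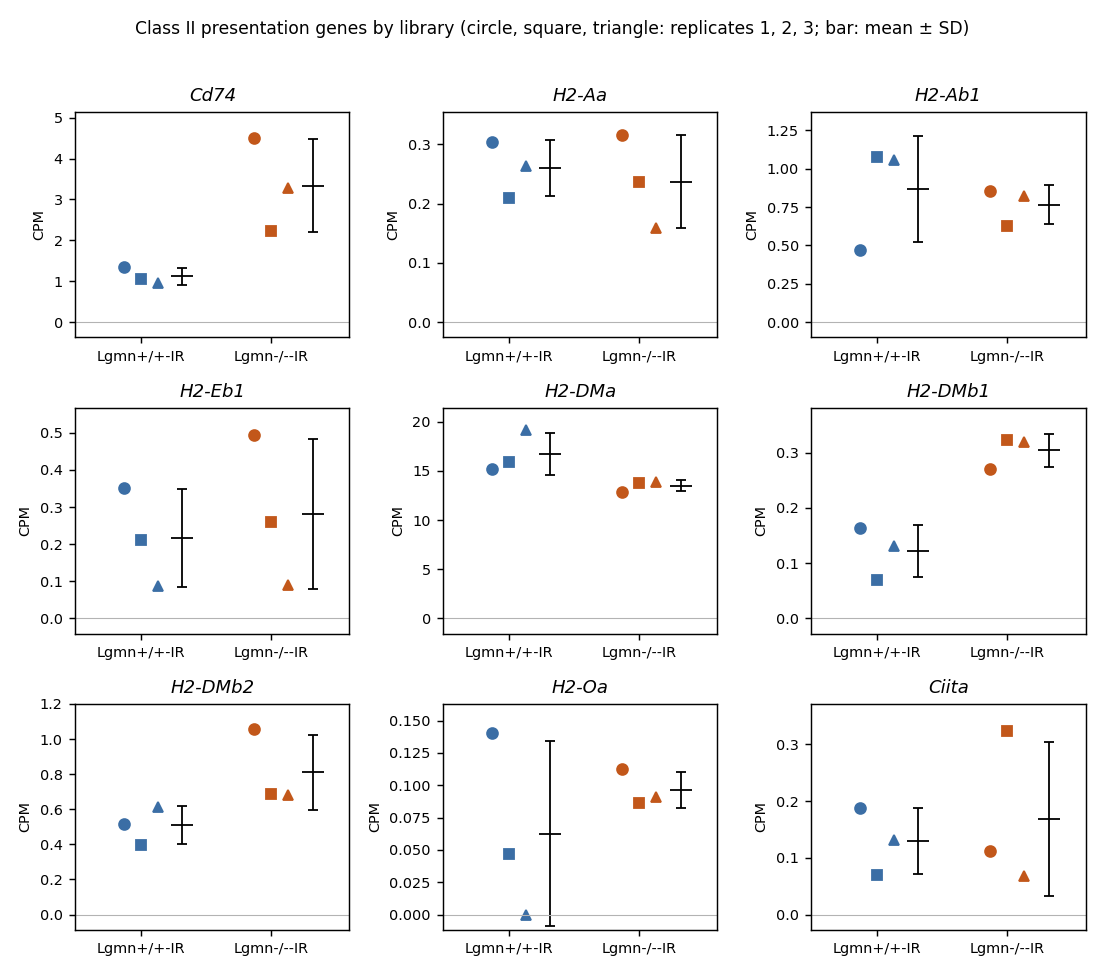
Level of each of the 9 class II genes in CPM (vertical axes differ and are marked at 0), with 3 Lgmn+/+-IR libraries in blue, 3 Lgmn-/--IR libraries in orange and the mean ± SD beside each group. Cd74, H2-DMb1 and H2-DMb2 lay higher in all Lgmn-/--IR libraries, H2-DMa lay lower in all of them, and the other 5 genes overlapped.

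H2-Aa, the alpha chain of I-A at chr17:34282744-34287823, had 13, 9 and 12 counts in the wild type and 14, 11 and 7 in the knockout, and the groups overlapped. Its log2 fold change was -0.13 (95% interval -1.07 to 0.81, edgeR adjusted p = 0.89). H2-Ab1, the beta chain of I-A at chr17:34257689-34269419, had 20, 46 and 48 counts in the wild type and 38, 29 and 36 in the knockout. The lowest library was wild-type replicate 1, the other wild-type libraries were the highest, all knockout libraries lay in between, and the log2 fold change was -0.18 (95% interval -1.05 to 0.69, edgeR adjusted p = 0.832). H2-Eb1, the beta chain of I-E, had 15, 9 and 4 counts in the wild type and 22, 12 and 4 in the knockout. Replicate 3 was the lowest library in both groups, the ranges overlapped, and the log2 fold change was 0.38 (95% interval -1.26 to 2.03, edgeR adjusted p = 0.809). A log2 fold change of -1 lay inside all 3 intervals and +1 inside that of H2-Eb1, so differences of that size in those directions were not excluded. The intervals of H2-Aa and H2-Ab1 ended below +1.

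Summed over the 3 chains, the level was 1.13, 1.49 and 1.41 CPM in the wild type and 1.67, 1.12 and 1.07 CPM in the knockout. The highest library was Lgmn-/--IR replicate 1, which was also the highest for Cd74, but the other Lgmn-/--IR libraries lay level with or just below the lowest Lgmn+/+-IR library. The mean was 1.34 ± 0.193 CPM against 1.29 ± 0.33 CPM (SD, n = 3 each). Their log2 ratio was -0.06, with -0.29 without Lgmn-/--IR replicate 1 and, of the opposite sign, 0.02 without Lgmn+/+-IR replicate 2, 0.03 without Lgmn-/--IR replicate 2 and 0.05 without Lgmn-/--IR replicate 3. H2-Ab1 made up 41.7% to 75% of the 3-chain sum in the wild type and 51.4% to 76.6% in the knockout. Relative to this sum, Cd74 stood at 1.21, 0.703 and 0.688 in the wild type and at 2.7, 2 and 3.06 in Lgmn-/--IR, as ratios of CPM within a library. The groups of ratios did not overlap. The mean ratio was 0.866 ± 0.296 in the wild type and 2.59 ± 0.541 in the knockout, and by FPKM, the authors' value scaled per length, it was 0.77 ± 0.234 and 2.38 ± 0.524. These ratios share their numerator with the Cd74 result and are given as a description. How well the class II chain reads of BALB/c mice align to the GRCm38 reference was not tested. The strain of the embryonic stem cell clone is not given in the sources used here. Chain counts, and with them these ratios and the order of the genes by FPKM, may depend on both.

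**Figure D2:**
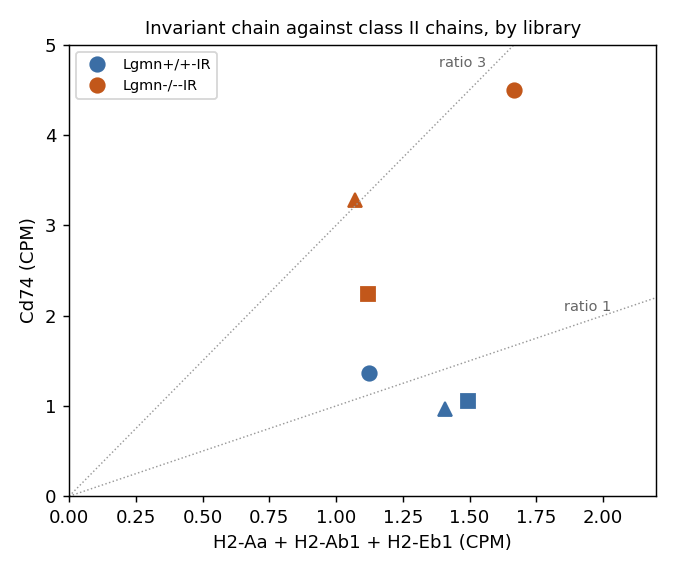
Cd74 (vertical, CPM) against the sum of H2-Aa, H2-Ab1 and H2-Eb1 (horizontal, CPM) in each library, with dotted lines at ratios of 1 and 3 and with circle, square and triangle for replicates 1, 2 and 3. The Lgmn-/--IR libraries (orange) had ratios of 2 to 3.06 and the Lgmn+/+-IR libraries (blue) 0.688 to 1.21, while the chain sums of the groups overlapped.

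The peptide editors moved in different directions, and none passed the test. H2-DMa, the alpha chain of H2-DM at chr17:34119541-34139101, was the most abundant of the 9 genes, with 646, 679 and 871 counts in the wild type and 572, 638 and 610 in the knockout. In CPM all Lgmn-/--IR libraries lay below all Lgmn+/+-IR libraries, at 13.5 ± 0.551 against 16.7 ± 2.14 (SD, n = 3 each). Its log2 fold change was -0.31 (SE 0.12, 95% interval -0.60 to -0.02), with an edgeR adjusted p of 0.249, and -0.20 without Lgmn+/+-IR replicate 3. H2-DMa shares 360 of its 3448 exonic bases with Brd2 on the opposite strand, a gene with 7717 to 10911 counts per library. The strand setting of the counting is not given in the sources used here, so reads of the shared stretch cannot be told apart. Brd2 had a log2 fold change of -0.11 (edgeR adjusted p = 0.758).

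H2-DMb1, a beta chain of H2-DM at chr17:34153072-34160230, had 7, 3 and 6 counts in the wild type and 12, 15 and 14 in the knockout. The groups did not overlap. The log2 fold change was 1.30 (SE 0.42, 95% interval 0.30 to 2.30), with an edgeR adjusted p of 0.169. H2-DMb1 passed the filter through its Lgmn-/--IR libraries alone, so a gene kept in this way had to differ between the groups. H2-DMb2, the second beta chain gene at chr17:34143307-34151555, had 22, 17 and 28 counts in the wild type and 47, 32 and 30 in the knockout. The groups did not overlap in CPM, but they did in FPKM, at 0.511, 0.24 and 0.624 against 0.833, 0.543 and 0.369. Its log2 fold change was 0.66 (SE 0.32, 95% interval -0.09 to 1.42, edgeR adjusted p = 0.323), and 0.43 without Lgmn-/--IR replicate 1. The beta chain genes are near copies: 22.7% of the 50-base stretches of H2-DMb1 transcripts also occur in H2-DMb2, so the split of reads between them is uncertain. Their sum does not change with that split, but it may with whether shared reads were dropped or counted for both genes, which is not given. The sum was 0.68, 0.467 and 0.748 CPM in the wild type and 1.33, 1.01 and 1.00 CPM in the knockout. The sums did not overlap in CPM, although they did in FPKM. The ratio of H2-DMa to that sum in CPM was 22.3, 34 and 25.6 in the wild type and 9.69, 13.6 and 13.9 in the knockout. The lowest Lgmn+/+-IR ratio was thus above the highest Lgmn-/--IR ratio, and this also held in FPKM, at 14.5 and 14 respectively. No test was made of these ratios.

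H2-Oa, the alpha chain of the H2-DM inhibitor H2-O, had 6, 2 and 0 counts in the wild type and 5, 4 and 4 in the knockout. A count of 0 allows up to 3 counts in that library, and no difference was detectable (two-sided exact permutation p = 0.5, n = 3 each, where 0.1 is the smallest p possible). Of its 50-base stretches, 15.5% are shared with the antisense transcript BC051537. Ciita, the transactivator, had 8, 3 and 6 counts in the wild type and 5, 15 and 3 in the knockout. The groups overlapped, with both the highest and the lowest CPM in Lgmn-/--IR (two-sided exact permutation p = 0.9, n = 3 each). Its 3′ part overlaps Dexi on the opposite strand over 3.45% of its exonic bases. Fitted without a filter on low counts, the log2 fold changes were 0.63 for H2-Oa (edgeR adjusted p = 0.796) and 0.38 for Ciita (edgeR adjusted p = 0.827).

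**Figure D3:**
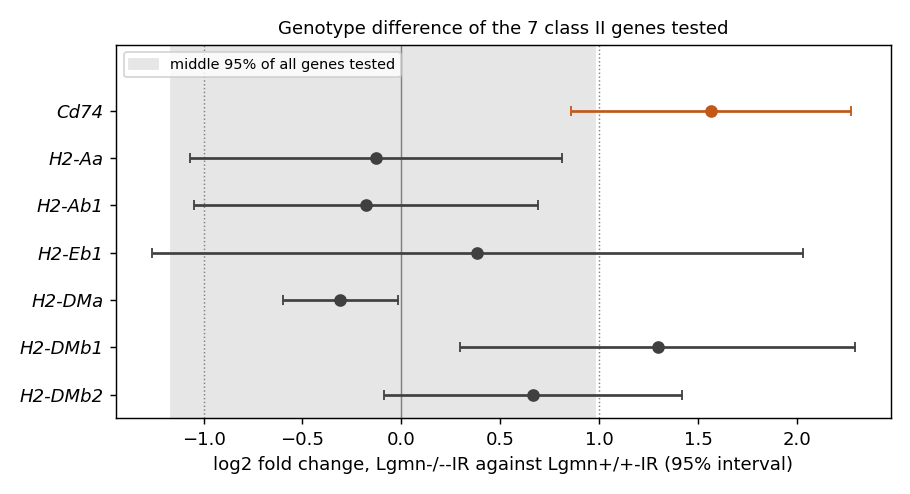
Log2 fold change of Lgmn-/--IR against Lgmn+/+-IR (points) with 95% intervals (bars) for the 7 class II genes tested by edgeR, over the middle 95% of all genes tested (grey) and the fold threshold (dotted). Cd74, at 1.57, was the 1 gene called (orange), and H2-DMb1, at 1.30, had an interval from 0.30 to 2.30 but an adjusted p of 0.169.

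Over the 9 genes, all Lgmn-/--IR libraries lay above all Lgmn+/+-IR libraries for 3 (Cd74, H2-DMb1 and H2-DMb2) and below for 1 (H2-DMa), and 5 overlapped. Of all genes tested, 12.4% lay wholly above and 13.3% wholly below. The median log2 fold change of the 7 tested was 0.38 and that of all genes -0.01. The 7 are those kept by the filter, H2-DMb1 through its knockout libraries alone, and H2-DMb1 and H2-DMb2 share stretches of sequence. H2-Oa and Ciita, counted among the 9, were not tested. Nothing is therefore read from that median or from the count of 3 genes that lay above.

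Compared per length, H2-DMa was the highest of the 9 genes in both genotypes, at 9.74 ± 1.15 FPKM in the wild type and 7.75 ± 0.403 FPKM in the knockout (SD, n = 3 each). In Lgmn+/+-IR it was followed by Cd74 at 0.762 ± 0.136 FPKM, H2-Ab1 at 0.652 ± 0.244 and H2-DMb2 at 0.458 ± 0.198, whose ranges overlapped from each to the next. H2-Aa at 0.203 ± 0.0353 FPKM and H2-Eb1 at 0.159 ± 0.1 also overlapped each other, and H2-Eb1 overlapped H2-DMb2, H2-DMb1 and H2-Oa. H2-DMb1, at 0.0755 ± 0.0282 FPKM, overlapped H2-Oa at 0.0461 ± 0.0501, and Ciita was lowest at 0.021 ± 0.0102, within the range of H2-Oa. In Lgmn-/--IR, Cd74 reached 2.2 ± 0.733 FPKM and its lowest library, at 1.56 FPKM, was above every library of the 7 genes below it. Next came H2-DMb2 at 0.582 ± 0.234 FPKM and H2-Ab1 at 0.552 ± 0.104, which overlapped. Lower still were H2-Eb1 at 0.203 ± 0.149 FPKM, H2-Aa at 0.18 ± 0.0614 and H2-DMb1 at 0.178 ± 0.0205, which overlapped each other. Then came H2-Oa at 0.0764 ± 0.0119 and Ciita at 0.0273 ± 0.025, which did not overlap. The range of H2-Oa lay within that of H2-Eb1, so their order is not resolved. The ranges of Cd74 and H2-Ab1 thus overlapped in the wild type and not in the knockout.

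Among the 5 tested genes of the class II interval on chromosome 17 that are not among the 9, Brd2, Psmb9, Tap1, Psmb8 and Tap2, none had an edgeR adjusted p under 0.05, and their median log2 fold change was 0.13. Tap1 and Tap2 form the peptide transporter of class I presentation, and Psmb8 and Psmb9 are subunits of the immunoproteasome. H2-Ob, the beta chain partner of H2-Oa, was below the filter at 6, 7 and 4 counts in the wild type and 17, 20 and 8 in the knockout. Its groups did not overlap, and it was not tested. H2-Eb2 had 0 counts in all 6 libraries. H2-Ea-ps, the I-E alpha chain gene that the annotation names as a pseudogene, had 3, 6 and 0 counts in the wild type and none in the knockout. Whether that name holds for BALB/c mice is not given in the sources used here.

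The 5 genes whose pattern over the 6 libraries was most like that of Cd74 were Hspb7, E530001F21Rik, 6330549D23Rik, Noxred1 and Xlr4b. Likeness was the root mean square difference of log2(CPM + 0.1) after centring each gene, and it ran from 0.0802 for Hspb7 to 0.242 for Xlr4b. Hspb7, a small heat shock protein gene, had 15, 10 and 12 counts in the wild type and 55, 30 and 41 in the knockout, with the same order of replicates as Cd74 in the knockout. In this order of likeness H2-DMb1 ranked 223 and H2-DMb2 377, while H2-Eb1 ranked 7987, H2-Aa 9610, H2-Ab1 13218 and H2-DMa 14086. The genes most like the 3-chain sum were Mns1, Gm28884, Dhrs13, Itih2 and Sigirr, with differences of 0.0647 to 0.0738. Cd74 ranked 17481 by likeness to that sum.

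Lists of other genes on the class II route were then read for changes by edgeR's adjusted p alone, a rule that called 1.65% of all genes higher and 1.68% lower. None of 15 transcription genes passed, among them the RFX and NF-Y subunits, Spi1, Irf8 and Ep300, the most abundant, whose log2 fold change was 0.11 (edgeR adjusted p = 0.715). The median of the list was 0.10. Of 19 tested interferon-gamma genes, 1 was lower and none higher, with a median of 0.05. It was Gbp3, an interferon-induced GTPase, with 189, 209 and 198 counts in the wild type and 117, 90 and 111 in the knockout. All Lgmn-/--IR libraries were lower, with a log2 fold change of -0.94 (SE 0.18, edgeR adjusted p = 0.0374). That call was lost in 10 of the 18 other settings, among them the removal of any 1 of the 6 libraries (edgeR adjusted p = 0.0644 to 0.159). Ifng, the cytokine gene itself, had 0 counts in all libraries, and Jak1, the most abundant gene of the list, had a log2 fold change of 0.05 (edgeR adjusted p = 0.815).

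Of 16 tested genes of endosomal processing, Lgmn was the 1 called, lower as given above, and the median was -0.08. Lgmn, Ctsz, Ifi30, Ctsl and Ctsh, 5 of the 16, were lower in all Lgmn-/--IR libraries and 0 higher in all. Of all genes tested, 13.3% were lower and 12.4% higher in this way. Ctss, the protease that makes the last cuts of the invariant chain in many antigen-presenting cells, was at 30.4 ± 3.07 CPM in the wild type and 30.6 ± 3.61 CPM in the knockout (SD, n = 3 each). The means were nearly equal, with a 95% interval of the log2 fold change from -0.29 to 0.30 (edgeR adjusted p = 0.977). Cst3, a cathepsin inhibitor and the most abundant gene of the list, had a log2 fold change of 0.25 (edgeR adjusted p = 0.449). Of 16 tested genes of class II traffic and folding, 1 was higher and none lower, with a median of 0.00. Hspa5, the chaperone BiP of the endoplasmic reticulum, had 3456, 4369 and 5006 counts in the wild type and 6967, 8490 and 8679 in the knockout. Every Lgmn-/--IR library was above every Lgmn+/+-IR library (log2 fold change 0.87, SE 0.14, edgeR adjusted p = 0.0225), and the call was lost in 5 of the 18 other settings, the removal of any 1 library except Lgmn-/--IR replicate 1 (edgeR adjusted p = 0.0518 to 0.0949). Ap2a1, an adaptor subunit and the most abundant gene of this list, had a log2 fold change of -0.06 (edgeR adjusted p = 0.752). March8, a ubiquitin ligase that acts on class II molecules, was chosen after its values were seen. It had 2530, 2498 and 865 counts in the wild type and 690, 859 and 517 in the knockout, with 1 wild-type library at the level of the knockout (log2 fold change -1.58, SE 0.42, edgeR adjusted p = 0.103).

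None of 6 tested genes of CD74 signaling passed the test, and their median was 0.05. Mif, the ligand of CD74 and the most abundant of them, was at 246 ± 4.52 CPM in the wild type and 260 ± 8.68 CPM in the knockout (SD, n = 3 each), with a log2 difference of 0.08 (edgeR adjusted p = 0.602). None of 7 tested costimulation genes passed either, with a median of 0.05. Cd4, the most abundant of these, varied widely, with 206, 713 and 1227 counts in the wild type and 1042, 89 and 106 in the knockout. It separated replicates within each genotype rather than the genotypes (log2 fold change -0.80, SE 1.01, edgeR adjusted p = 0.716).

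Markers of the cell types that carry class II, or that blood could bring, were read beside Cd74. Microglia markers summed to 363 to 396 CPM in the wild type and 319 to 352 CPM in the knockout. Of the 17, none passed the test, 5 were lower in all Lgmn-/--IR libraries and none higher in all (13.3% and 12.4% of all genes tested), and the median log2 fold change was -0.19. Border macrophage markers, led by Stab1, summed to 17.7 to 19.3 CPM and 13.7 to 21.6 CPM, and dendritic cell markers, led by Zbtb46, to 14.6 to 18.6 CPM and 16.3 to 19.8 CPM. In both lists the sums overlapped and no gene passed the test, of 9 and 5 tested. All 9 tested border macrophage markers overlapped between genotypes, while 1 of the 5 tested dendritic cell markers was higher in all Lgmn-/--IR libraries. It was Clec10a, a lectin of dendritic cells and macrophages, with 11, 2 and 17 counts in the wild type and 39, 24 and 25 in the knockout, highest in replicate 1 as Cd74 was (log2 fold change 1.51, SE 0.60, edgeR adjusted p = 0.239). Cd209a, below the filter, was also higher in all Lgmn-/--IR libraries, at 0, 6 and 6 counts against 8, 7 and 18. Among the other tested dendritic cell markers, Itgax (-1.29), Batf3 (-0.21) and Flt3 (-0.08) had negative log2 fold changes and Zbtb46 (0.25) a positive one. The median log2 fold change of the 5 tested was -0.08. Clec10a and Cd209a were chosen after their values were seen, and the part of dendritic cells or macrophages in the Cd74 result was not tested.

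B cell markers summed to 14.6 to 24.8 CPM in the wild type and 39 to 58.3 CPM in the knockout, without overlap, and 1 of the 5 tested passed. That gene was Ighm, the constant region of IgM, with 821, 441 and 522 counts in the wild type and 1568, 2040 and 2294 in the knockout (log2 fold change 1.68, SE 0.26, edgeR adjusted p = 0.0195). Within Lgmn-/--IR, Ighm was highest in replicate 3 and lowest in replicate 1, and Cd74 was highest in replicate 1 and lowest in replicate 2. Ighm, at chr12:113418558-113422730, lies on the same chromosome as the targeted Lgmn, at chr12:102394084-102439813. Any effect of that position on its level was not tested. The other tested B cell markers overlapped between genotypes, with log2 fold changes of 0.13 (Cd79a), 0.05 (Cd37), 0.15 (Ighd) and -0.52 (Fcer2a). Ms4a1, which defines mature B cells, was at 0 counts in all 6 libraries, and 3 of the 12 markers stayed at 3 counts or fewer in every library. T cell markers summed to 6.45 to 29.8 CPM and 4.01 to 25.9 CPM, mostly from Cd4, and none of the 3 tested passed. Cd3e and Cd3d, which define T cells, were at 0 in all libraries.

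Red cell markers, led by Hba-a1, summed to 7.59 to 15.9 CPM in the wild type and to 2273, 1730 and 234 CPM in the knockout replicates 1, 2 and 3. All 5 tested, Hba-a1, Hba-a2, Hbb-bs, Hbb-bt and Alas2, were DEGs in that direction. Among the knockout libraries, replicate 1 had both the highest Cd74 and the highest red cell sum. Replicate 2 had the lowest Cd74 and replicate 3 the lowest red cell sum. Monocyte and neutrophil markers summed to 7.05 to 12.4 CPM in the wild type and 0.969 to 3.06 CPM in the knockout. That fall came from Ly6c2, the 1 gene tested (log2 fold change -3.31, SE 0.28, edgeR adjusted p = 0.00152). Below the filter, S100a8, S100a9, Ngp, Retnlg and Plac8 had higher means in the knockout, mostly from replicate 1. S100a9, for example, had 2, 0 and 2 counts in the wild type and 32, 0 and 0 in the knockout. Camp was also higher in mean and Ccr2 lower, so the sum does not describe the list. Choroid plexus and meningeal markers, led by Ttr, summed to 80.6 to 109 CPM and 98.1 to 110 CPM, and endothelial markers, led by Flt1, to 167 to 234 CPM and 175 to 272 CPM. No gene of these lists passed the test. Astrocyte and oligodendrocyte markers summed to 2811 to 3299 CPM and 2376 to 2582 CPM, without overlap. In that list the myelin gene Mog was lower (log2 fold change -0.91, edgeR adjusted p = 0.0171) and the astrocyte water channel gene Aqp4 was higher (0.55, edgeR adjusted p = 0.0374). Red cell markers and Ighm thus moved with genotype as Cd74 did and Ly6c2 opposite to it, and their part in the Cd74 result was not tested.

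**Figure D4:**
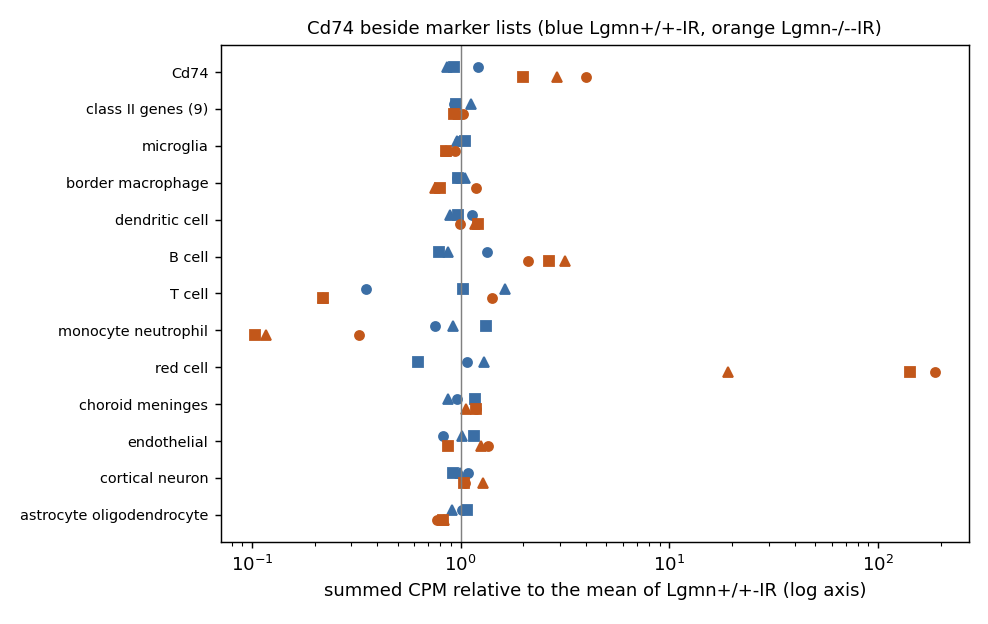
Cd74, the 9 class II genes and each marker list as summed CPM in each library relative to the mean of Lgmn+/+-IR (log axis, blue Lgmn+/+-IR, orange Lgmn-/--IR, circle, square and triangle for replicates 1, 2 and 3). Red cell sums reached 2273 CPM in Lgmn-/--IR against at most 15.9 CPM in Lgmn+/+-IR. B cell sums, mostly Ighm, were higher in all Lgmn-/--IR libraries, and microglia sums were lower in all of them.

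**Figure D5:**
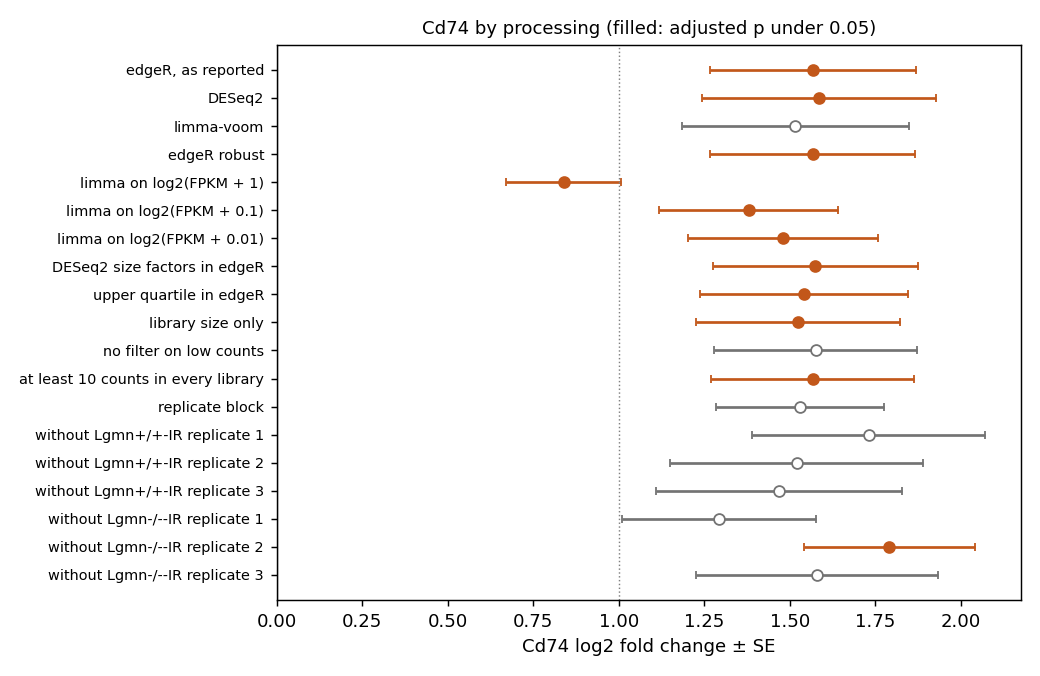
Log2 fold change of Cd74 ± SE as reported and in the 18 other settings, with the fold threshold of 1 dotted and points filled where the adjusted p was under 0.05. The estimates ran from 0.84 to 1.79, all on the side of higher Cd74 in Lgmn-/--IR, and 8 of the 18 were above the p-value threshold.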

How the data were processed

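Cortex poly(A) RNA was sequenced in 3 Lgmn+/+-IR and 3 Lgmn-/--IR samples. The authors trimmed reads with Trimmomatic 0.36 and aligned them with HISAT2 to GRCm38, and they deposited raw counts per gene and FPKM values made with StringTie. The read counter, annotation release and strand setting are not given in the sources used here. Gene positions came from GENCODE M21 (51633 of 51826 IDs matched), and 26 symbols that the tables show as dates were restored by gene ID. Counts were tested in edgeR 4.0.16 (R 4.3.3) with TMM scaling, its default filter by group and the quasi-likelihood test, with Benjamini-Hochberg adjustment over 18345 genes. The thresholds for DEGs were those of the study, 0.05 for the adjusted p and 1 for the size of the log2 fold change. The study names limma for this step without its input values, so limma 3.58.1, on voom weights or on log2(FPKM + 1, 0.1 or 0.01), and DESeq2 1.42.0 were alternatives. Replicate libraries differed by far more than sampling noise. The edgeR fit was tested on simulated counts. The 9 genes and all lists were chosen with earlier results of these data known. Named were the 9 genes, Lgmn, from each pathway or marker list the most abundant gene and those with an adjusted p under 0.05 and the 5 genes nearest in pattern to Cd74 and to the class II chain sum. Some genes that this rule would name are not reported here. Other genes are named as members of a list or of the chromosome 17 interval. Limits given for 0 counts cover counting error only.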

Additional observations from a re-analysis of the deposited data

How the results depend on the processing

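With 44 to 200 Cd74 counts per library, depth and the spread between samples limited the Cd74 result, whose adjusted p stayed under 0.05 in 10 of 18 alternatives. It rose above with limma-voom (log2 fold change 1.52, adjusted p = 0.0616), with no filter on low counts (1.58, edgeR adjusted p = 0.0689), with the replicate block (1.53, edgeR adjusted p = 0.0858) and without any single library other than Lgmn-/--IR replicate 2 (1.29 to 1.73, and 1.79 without that library, where it held). On log2(FPKM + 1) it was 0.84 (limma adjusted p = 0.0494), under the fold threshold, so the number of DEGs among the 9 genes was 1 as reported and 0 with limma-voom, with log2(FPKM + 1), with no filter and with the block, and 0 to 1 without single libraries. Lgmn was -0.63 with no filter (edgeR adjusted p = 0.0632), -0.65 with the block (edgeR adjusted p = 0.113) and -0.74 to -0.54 without single libraries. DEGs over all genes numbered 286 higher and 306 lower with DESeq2, 106 and 122 when every library had to reach 10 counts, 83 and 92 on log2(FPKM + 1), 74 and 65 with the block, and 107 to 156 and 93 to 170 without single libraries, the fewest without Lgmn+/+-IR replicate 2. On the route lists, the number of higher genes was 0 to 1 without single libraries, and that of lower genes was 1 on log2(FPKM + 0.1), 1 on log2(FPKM + 0.01), 0 with no filter, 0 with the block and 0 to 1 without single libraries. The causes were not tested. Reversals met only genes that had not been called: H2-Aa without Lgmn+/+-IR replicate 1 (0.00624) or Lgmn-/--IR replicate 3 (0.0875), H2-Ab1 without Lgmn+/+-IR replicate 2 (0.00415) and H2-Eb1 without Lgmn-/--IR replicate 1 (-0.29). Without single libraries H2-Aa ran from -0.38 to 0.0875, H2-Ab1 from -0.47 to 0.00415, H2-Eb1 from -0.29 to 0.92, H2-DMa from -0.37 to -0.20, H2-DMb2 from 0.43 to 0.82 and the 3-chain sum from -0.29 to 0.05. Same-numbered libraries did not deviate together (correlations -0.252, -0.0464 and -0.0276), so the numbers are not taken as pairs. H2-Aa, H2-Eb1 and H2-DMb1 gave no value under the 10-count rule. No scaling moved the median of all genes beyond -0.06.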
